A study of Mus musculus with 18 samples.

Results

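Transcript levels of 44 genes of DNA replication and S phase were measured by RNA-seq in mouse hearts after myocardial infarction (MI) or sham surgery. The genes were taken by name: the factors that license and fire replication origins, the enzymes that copy DNA, the enzymes that supply nucleotides, regulators that open S phase, and factors that rebuild chromatin on the copied strands. All 44 were found once each among the 12988 genes of the deposited table. Values are FPKM, fragments scaled by transcript length and by the mapped fragments of the library, so levels of different genes are compared per length. Of the 44, 42 passed the filter on low values, at least 1 FPKM in at least 3 libraries, and were tested. Orc1 and Pole stayed below it.

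Newborn mice had been given adeno-associated virus of serotype 9 (AAV9) under the skin, either with mouse Fgf17, which encodes a secreted fibroblast growth factor, or as the control vector. At 8 weeks of age the left anterior descending coronary artery was tied off for good (MI) or not tied (sham). The groups were MI day 14 FGF17 (3 libraries), MI day 14 control (3), MI day 3 FGF17 (4), MI day 3 control (4) and sham (4). Mice of all groups carried an AAV9 vector, the sham hearts had the control vector, and no sham group had the Fgf17 vector. The day of the sham hearts, the strain, the sex and the promoter of the vector are not given in the sources used here. The labels also do not tie each library to an animal of its own, so p-values measure only the spread between these libraries, part of which may be technical.

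Replication begins with licensing: the origin recognition complex, CDC6 and CDT1 load the MCM2-7 helicase onto DNA in G1, and geminin blocks CDT1 once S phase has begun. CDC7 and cyclin-dependent kinases then bring CDC45 and GINS to the helicase, primase and the polymerases start synthesis, and the sliding clamp PCNA, loaded by replication factor C, holds the polymerases on DNA. The E2F transcription factors switch on many of these genes as cells enter S phase. Adult cardiomyocytes have largely left the cell cycle, while macrophages, fibroblasts and endothelial cells are known to divide in an infarct.

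The vector gene checked the labels: Fgf17 ranged over 45.3 to 93.4 FPKM in MI day 14 FGF17, 0 to 0.254 in MI day 14 control, 47.0 to 75.6 in MI day 3 FGF17 and 0 to 0.380 in MI day 3 control, and was listed at 0 in all 4 sham libraries. Depth is unknown because the table holds FPKM, whose sum per library ran from 301085 to 362004. The 13 mitochondrially encoded genes took 20.8 to 32.8% of that sum in MI day 14 FGF17, 27.4 to 35.1% in MI day 14 control, 27.9 to 30.7% in MI day 3 FGF17, 18.8 to 28.4% in MI day 3 control and 35.6 to 41.7% in sham. Libraries are called by the numbers of their columns, and values are listed in the order of those numbers (1, 3 and 4 in MI day 14 FGF17, 1, 2 and 4 in MI day 14 control, 1 to 4 at day 3, and 1, 2, 4 and 5 in sham). MI day 3 control library 4, which had the lowest mitochondrial share, was the highest of its group for 38 of the 44 genes, and MI day 14 control library 4, with the highest share of its group, was the lowest of its group for 34. The summed level of the 44 genes was 118 to 125 FPKM in MI day 14 FGF17, 126 to 162 in MI day 14 control, 286 to 318 in MI day 3 FGF17, 272 to 401 in MI day 3 control and 97.5 to 118 in sham.

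**Figure D1:**
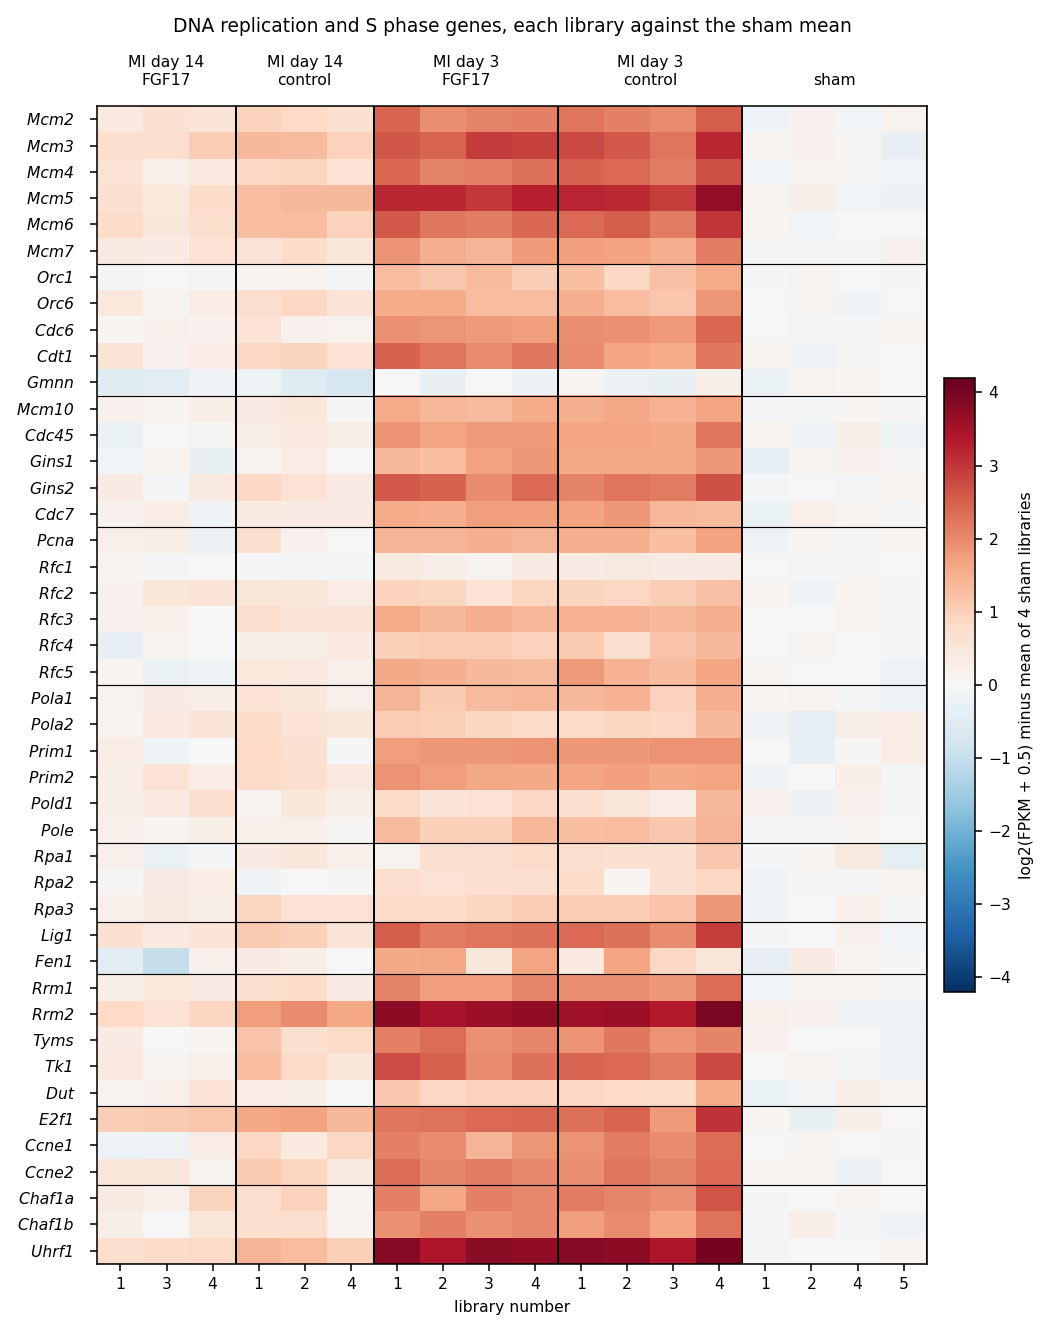
Rows are the 44 genes in order of role (thin lines part the roles), columns are the 18 libraries, and colour is log2(FPKM + 0.5) minus the mean of the 4 sham libraries. The day 3 libraries are red for nearly every gene, the day 14 libraries are pale, and Gmnn is near 0 or blue in the 14 MI libraries.

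At 3 days after MI the replication genes were higher as a group in hearts with the control vector. Of the 42 genes tested, 41 were higher than in sham and none was lower at an adjusted p under 0.05 in limma, while the inhibitor geminin (Gmnn) did not pass. Over all 12052 genes tested, 45.9% were higher and 15.0% lower. The median log2 change was 1.78 over the 42 genes and 0.25 over all genes tested. The largest changes were those of Uhrf1, Rrm2 and Mcm5, with log2 changes of 3.75 ± 0.13, 3.61 ± 0.14 and 3.22 ± 0.14 (± SE), and the smallest of those past the threshold was 0.35 ± 0.07 for Rfc1. Changes are on the log2(FPKM + 0.5) scale, which understates them for genes of low level and so alters their order. As ratios of mean FPKM, Uhrf1 was still the largest, but Mcm10, Chaf1b, Cdc6, Tk1, Gins2 and the untested Orc1 exceeded Rrm2 and Mcm5. In whole hearts, fewer or more cells of a type and less or more RNA per cell cannot be told apart.

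Part of that count follows from the filter: 13 of the 42 genes passed it only through day 3 libraries and so had to be higher there. Of the 29 that passed without the day 3 libraries, 28 were higher at day 3 than in sham, and of the 17 that passed in sham libraries alone, 16 were. All 4 MI day 3 FGF17 libraries lay above all 4 sham libraries for 42 of the 44 genes, against 41.8% of all genes tested. The 4 MI day 3 control libraries did so for 42 genes as well, against 42.1% of all genes tested. With median-of-ratios scaling, which moved the median over all genes from 0.25 to -0.01 log2, 38 of 41 members were higher and 1 lower, beside 3609 higher and 3602 lower over all genes. When mitochondrially encoded genes were dropped, 39 were higher, beside 4210 higher and 2836 lower over all genes.

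At day 14 the distance from sham was smaller. In MI day 14 control against sham, 28 of 42 were higher and 1, Gmnn, was lower, with 41.0% higher and 9.00% lower over all genes tested. The median log2 change was 0.60 over the 42 genes and 0.25 over all. Rrm2, E2f1, Mcm5 and Uhrf1 had the largest changes, 1.79 ± 0.15, 1.56 ± 0.20, 1.34 ± 0.15 and 1.24 ± 0.15. The 13 genes that did not pass were Cdc6, Mcm10, Cdc45, Gins1, Cdc7, Pcna, Rfc1, Rfc4, Pold1, Rpa1, Rpa2, Fen1 and Dut, among them 4 of the 5 origin firing factors. Of the 29 genes that passed the filter without day 3 libraries, 18 were higher and 1 lower. Some of these passed only with the help of MI day 14 libraries. Of the 17 that passed in sham libraries alone, 8 were higher and 1 lower. Under median-of-ratios scaling 22 of 41 were higher and 2 lower, beside 2947 and 2693 over all genes, and with only the 2 groups in the fit 17 of 27 tested passed (16 higher, 1 lower). Without MI day 14 control library 1, 23 of 42 passed. Without MI day 3 control library 4, Cdc6, Cdc45, Cdc7 and Rfc4 passed as well (0.30 to 0.35), as did Mcm10 without MI day 14 control library 4 (0.42) and Rpa1 without sham library 4 (0.47). The day 14 and day 3 comparisons use the same sham libraries.

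Set against day 3 directly, the day 14 hearts were lower in most of the 42 genes with either vector. In MI day 14 FGF17 against MI day 3 FGF17, 40 were lower and none higher (median log2 change -1.57), with 22.5% lower and 16.2% higher over all genes tested. In MI day 14 control against MI day 3 control, 37 were lower and none higher (median -1.21), with 18.3% lower and 11.2% higher over all. All 13 genes that passed the filter only through day 3 libraries, for which the filter itself favours a lower day 14 level, are in both counts. Of the 29 that passed it without them, 27 were lower in MI day 14 FGF17 than in MI day 3 FGF17 (median -1.32), and 24 were lower in MI day 14 control than in MI day 3 control (median -0.89). Gmnn and Pold1 passed with neither vector. Pola2, Rpa1 and Fen1 did not pass in the control hearts. There Gmnn passed when MI day 14 FGF17 library 4, MI day 14 control library 1, MI day 3 control library 2 or 3 or sham library 1 was left out (-0.42 to -0.56), and Pold1 without MI day 3 control library 3 (-0.60). With FGF17, the calls of Rfc2, Pola2 and Rpa2 were lost without MI day 14 FGF17 library 1 (-0.33 to -0.48), and that of Rpa1 without library 3 (-0.51). On the log2(FPKM + 0.5) scale the 3 largest falls with either vector were those of Uhrf1, Rrm2 and Mcm5. Uhrf1 changed by -2.92 ± 0.15 with FGF17 and -2.51 ± 0.15 with the control vector, Rrm2 by -2.86 ± 0.15 with FGF17 and -1.82 ± 0.15 with the control vector, and Mcm5 by -2.52 ± 0.15 with FGF17 and -1.89 ± 0.15 with the control vector.

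**Figure D2:**
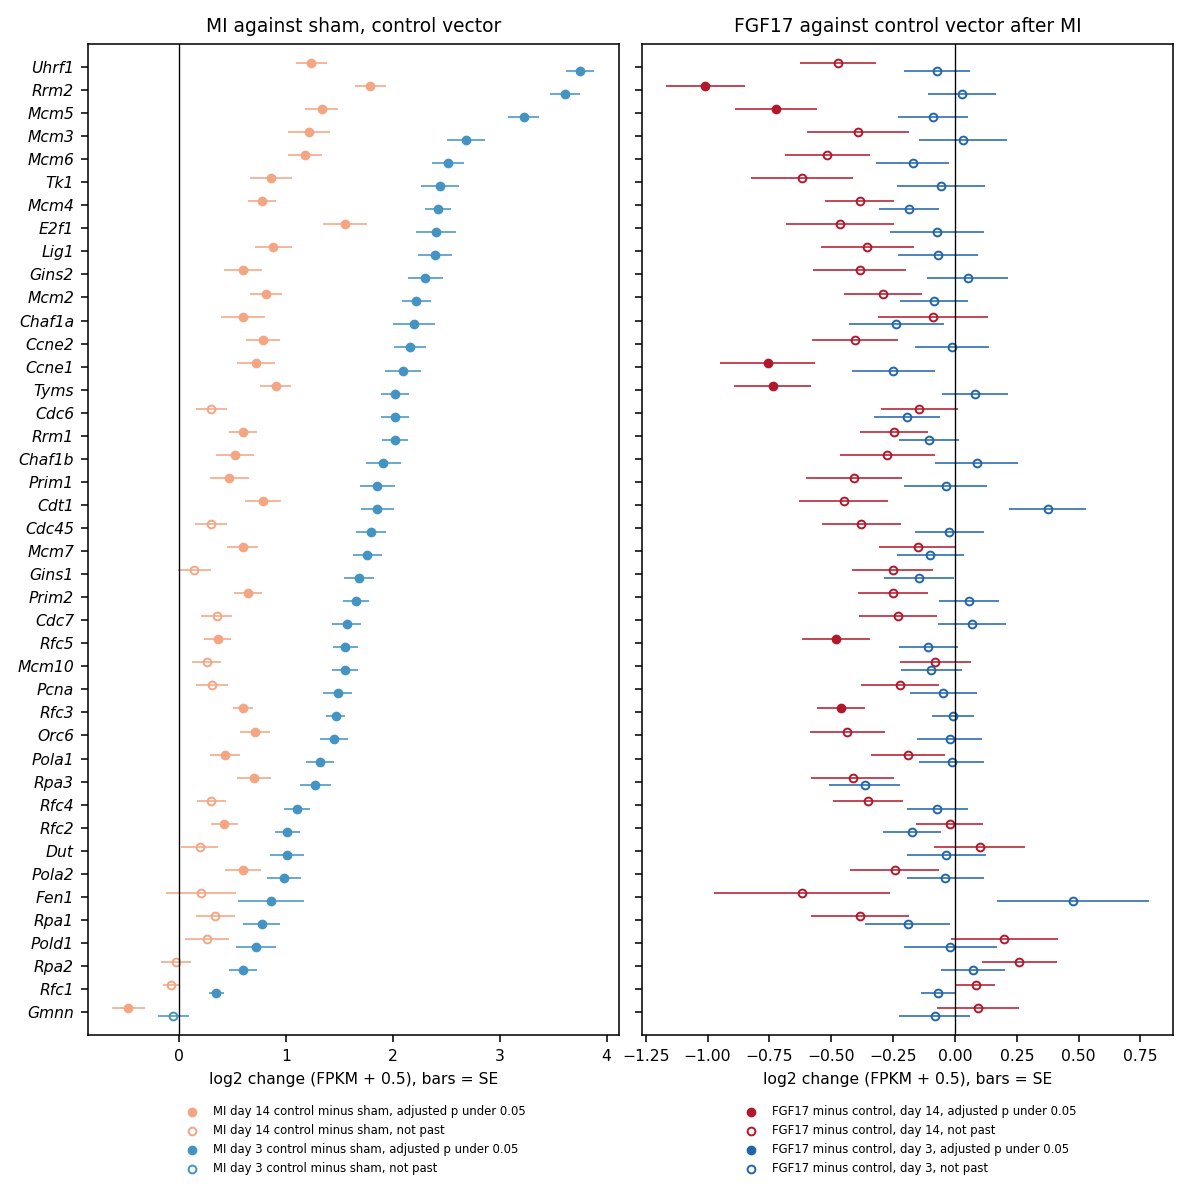
Log2 change ± SE (bars) of the 42 tested genes, ordered by MI day 3 control minus sham. Left panel, MI day 14 control and MI day 3 control, each minus sham. Right panel, FGF17 minus control at day 14 and at day 3. Filled points had an adjusted p under 0.05. The day 3 points on the left are filled for all but Gmnn, and on the right 6 points are filled, all of them at day 14 and below 0.

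The MCM2-7 helicase, a ring of 6 subunits that unwinds DNA ahead of the forks, was higher than sham in all 6 members at both days. Mcm5 (chromosome 8, 75109569 to 75128439, plus strand, in GRCm38 as are all coordinates here), the member of the ring with the largest change at day 3, had 6.88, 6.54, 5.54 and 9.83 FPKM in MI day 3 control and 0.367, 0.449, 0.250 and 0.188 in sham. It had 0.756, 0.593 and 0.874 FPKM in MI day 14 FGF17, 1.47, 1.57 and 1.58 in MI day 14 control and 6.71, 6.67, 5.85 and 7.22 in MI day 3 FGF17. Every MI library was above every sham library, and the FGF17 libraries of day 14 were all below the control libraries of that day. Mcm7, with the smallest change, had 7.44, 7.21, 6.43 and 10.1 FPKM in MI day 3 control and 1.77, 1.83, 1.84 and 2.23 in sham. It had 2.66, 2.57 and 3.17 FPKM in MI day 14 FGF17, 3.01, 3.64 and 2.85 in MI day 14 control and 8.51, 6.49, 5.97 and 7.91 in MI day 3 FGF17. The MI libraries of Mcm7 were likewise all above sham, but those of the 2 vectors overlapped at both days. The log2 changes against sham were 1.34 ± 0.15 at day 14 and 3.22 ± 0.14 at day 3 for Mcm5 (adjusted p = 2.80e-06 and 9.71e-12), and 0.60 ± 0.15 and 1.76 ± 0.13 for Mcm7 (adjusted p = 0.00266 and 5.71e-09). The other 4 lay between 0.78 (Mcm4) and 1.22 (Mcm3) at day 14 and between 2.22 (Mcm2) and 2.69 (Mcm3) at day 3.

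The ring holds 1 copy of each subunit, but their transcripts were not level. Mcm6 was the highest of the 6 in every library except sham library 2, where Mcm4 was. Mcm2 was the lowest in all day 3 libraries and in MI day 14 control, and Mcm5 was the lowest in 2 of 3 MI day 14 FGF17 libraries and 3 of 4 sham libraries. The highest subunit exceeded the lowest 5.89 ± 0.481 fold in MI day 14 FGF17, 5.49 ± 0.439 fold in MI day 14 control, 4.09 ± 0.341 fold in MI day 3 FGF17, 4.33 ± 0.498 fold in MI day 3 control and 9.43 ± 3.34 fold in sham (mean ± SD of FPKM ratios). The summed level of the 6 ran from 12.2 to 14.9 FPKM in MI day 14 FGF17, 16.6 to 20.9 in MI day 14 control, 48.0 to 59.3 in MI day 3 FGF17, 45.7 to 77.4 in MI day 3 control and 8.10 to 8.73 in sham. These sums did not overlap between the 2 vectors at day 14 and did at day 3.

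**Figure D3:**
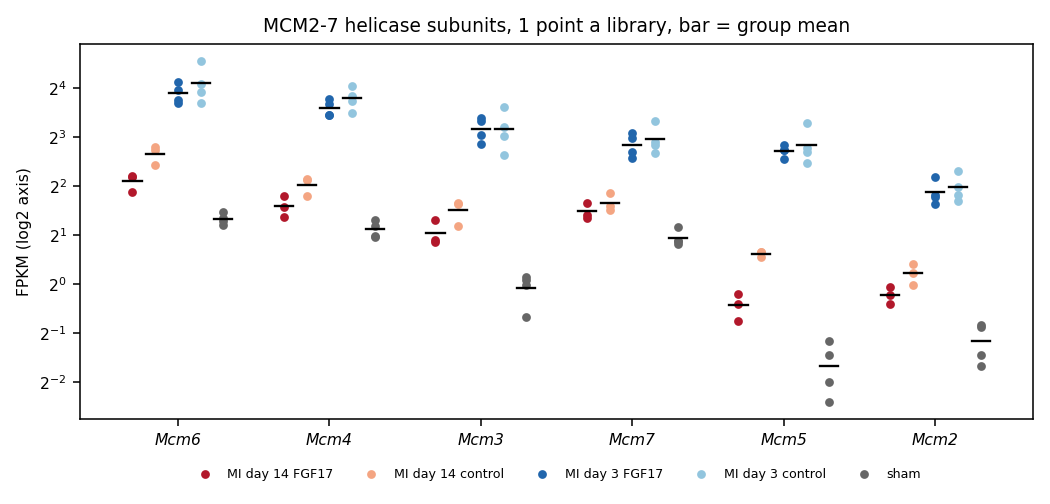
FPKM of the MCM2-7 subunits on a log2 axis, 1 point a library, with bars at the group means and the 5 groups side by side for each gene. Mcm5 spans the widest range, from a sham mean of 0.314 to a mean of 7.20 FPKM in MI day 3 control.

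Cdc6, Cdt1 and Orc6, the licensing factors tested, were higher at day 3, and geminin, the inhibitor of CDT1, did not pass. Cdc6 (chromosome 11, 98907801 to 98923940, plus strand), which with CDT1 loads the helicase, had 1.67, 1.65, 1.46 and 2.52 FPKM in MI day 3 control and 0.0535, 0.0503, 0.0443 and 0.113 in sham. Its levels were 0.0947, 0.158 and 0.141 FPKM in MI day 14 FGF17, 0.338, 0.147 and 0.123 in MI day 14 control and 1.63, 1.55, 1.45 and 1.40 in MI day 3 FGF17. The day 14 libraries were at most 0.338 FPKM and the day 3 libraries at least 1.40. Against sham, Cdc6 changed by 2.02 ± 0.13 log2 at day 3 (adjusted p = 1.05e-09), while the day 14 difference of 0.30 ± 0.14 did not pass (adjusted p = 0.0919). The day 14 value passed with a pseudocount of 0.1 (0.83, adjusted p = 0.0155) and without MI day 3 control library 4 (0.30, adjusted p = 0.0440). Cdt1 and Orc6, a subunit of the origin recognition complex, were higher than sham at day 14 (0.79 ± 0.17 and 0.71 ± 0.14) and at day 3 (1.86 ± 0.16 and 1.45 ± 0.13). Orc1, another subunit of that complex and below the filter, had 0.755, 0.466, 0.727 and 1.06 FPKM in MI day 3 control and 0, 0.0758, 0.0359 and 0 in sham. It was listed at 0, 0.0364 and 0 FPKM in MI day 14 FGF17 and 0.0572, 0.0838 and 0 in MI day 14 control, and had 0.798, 0.668, 0.815 and 0.581 in MI day 3 FGF17. All 8 day 3 libraries of Orc1 were above all others.

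Geminin (Gmnn, chromosome 13, 24751845 to 24761923, minus strand), the inhibitor of CDT1, had 27.8, 21.4, 20.2 and 30.1 FPKM in MI day 3 control and 20.8, 28.6, 27.4 and 25.9 in sham. It had 17.6, 18.3 and 22.8 FPKM in MI day 14 FGF17, 22.0, 17.6 and 15.5 in MI day 14 control and 25, 20.6, 25.8 and 21.6 in MI day 3 FGF17. Each MI group overlapped sham. The day 3 difference from sham was -0.05 ± 0.14 log2 (adjusted p = 0.771), and with median-of-ratios scaling it was -0.35 and passed (adjusted p = 0.0202). At day 14 Gmnn was lower than sham, with a change of -0.47 ± 0.16 (adjusted p = 0.0179), a call lost with equal summed FPKM (-0.42), without MI day 14 control library 2 (-0.45) and without library 4 (-0.36). The level of Gmnn exceeded that of Cdt1 48.8 ± 14.3 fold in MI day 14 FGF17, 24.6 ± 4.24 fold in MI day 14 control, 8.14 ± 1.93 fold in MI day 3 FGF17, 11.6 ± 0.869 fold in MI day 3 control and 129 ± 68.7 fold in sham (SD over libraries). Outside day 3 these ratios rest on a small divisor. Cdt1 was at 0.316 to 0.546 FPKM in MI day 14 FGF17, 0.569 to 0.891 in MI day 14 control and 0.125 to 0.303 in sham. It passed the filter on low values only through day 3 libraries.

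All 5 origin firing factors were higher at day 3, and Gins2 alone of them passed at day 14. Gins2 (chromosome 8, 120578633 to 120589304, minus strand), of the GINS complex that joins CDC45 on the helicase, had 2.09, 2.41, 2.27 and 3.37 FPKM in MI day 3 control and 0.0778, 0.0942, 0.0880 and 0.172 in sham. Levels of Gins2 were 0.271, 0.0713 and 0.288 FPKM in MI day 14 FGF17, 0.602, 0.415 and 0.267 in MI day 14 control and 3.13, 2.88, 1.90 and 2.67 in MI day 3 FGF17. The MI day 14 control libraries stayed above sham and the MI day 14 FGF17 libraries overlapped it. Its changes against sham were 0.60 ± 0.18 at day 14 (adjusted p = 0.00972, lost without MI day 14 control library 1, at 0.47) and 2.30 ± 0.16 at day 3 (adjusted p = 2.33e-09). Gins1, of the same complex, had 4.88, 4.88, 4.89 and 5.68 FPKM in MI day 3 control and 0.874, 1.37, 1.47 and 1.27 in sham. It had 1.08, 1.40 and 0.881 FPKM in MI day 14 FGF17, 1.37, 1.65 and 1.24 in MI day 14 control and 3.99, 3.67, 5.03 and 5.71 in MI day 3 FGF17. Both day 14 groups of Gins1 overlapped sham (0.14 ± 0.15 for the control vector, adjusted p = 0.457), against 1.69 ± 0.14 at day 3.

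Cdc45, which couples GINS to the helicase, had 4.65, 4.76, 4.47 and 7.41 FPKM in MI day 3 control and 1.29, 0.959, 1.43 and 0.964 in sham. At day 14 it had 0.855, 1.17 and 1.19 FPKM with FGF17 and 1.48, 1.67 and 1.45 with the control vector. It had 5.53, 4.72, 5.13 and 5.15 FPKM in MI day 3 FGF17. The 3 MI day 14 FGF17 libraries overlapped sham, and the 3 MI day 14 control libraries were above both. Cdc7, the kinase that triggers firing, had 2.25, 2.52, 1.74 and 1.65 FPKM in MI day 3 control and 0.204, 0.482, 0.405 and 0.327 in sham. At day 14 it had 0.461, 0.557 and 0.274 FPKM with FGF17 and 0.610, 0.565 and 0.572 with the control vector. It had 2, 1.93, 2.36 and 2.28 FPKM in MI day 3 FGF17. Here too the FGF17 libraries of day 14 overlapped sham and the control libraries were above both. Mcm10, which stabilises the firing helicase, had 0.962, 1.11, 0.925 and 1.13 FPKM in MI day 3 control and was listed at 0, 0, 0.0511 and 0.0326 in sham. Its day 3 change was the smallest of the 5 only on the log2(FPKM + 0.5) scale, which shrinks changes from so low a sham level. As group means Mcm10 had 1.03 FPKM in MI day 3 control and 0.0209 in sham, the widest FPKM ratio of the 5. It was listed at 0.0937, 0.0493 and 0.128 FPKM in MI day 14 FGF17 and 0.166, 0.224 and 0 in MI day 14 control, with 1.02, 0.875, 0.807 and 1.03 in MI day 3 FGF17. Outside day 3 Mcm10 was at most 0.224 FPKM in any library. The day 3 changes against sham were 1.79 ± 0.14 for Cdc45, 1.57 ± 0.14 for Cdc7 and 1.55 ± 0.12 for Mcm10, and the day 14 differences were 0.30 ± 0.15, 0.35 ± 0.15 and 0.26 ± 0.13 (adjusted p = 0.107, 0.0564 and 0.118).

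Pcna, the sliding clamp and the gene of the 44 with the highest mean level at day 3, had 48.0, 48.9, 41.0 and 56.0 FPKM in MI day 3 control and 14.6, 17.7, 17.7 and 17.8 in sham. It had 19.5, 20.7 and 14.3 FPKM in MI day 14 FGF17, 27.7, 19.4 and 17.3 in MI day 14 control and 46.0, 45.8, 48.0 and 46.8 in MI day 3 FGF17. All day 3 libraries were at or above 41.0 FPKM, and both day 14 groups overlapped sham. Pcna changed by 1.48 ± 0.14 log2 at day 3 (adjusted p = 6.38e-08), and its day 14 difference of 0.31 ± 0.15 did not pass (adjusted p = 0.0965; 0.44 and passing without MI day 14 control library 4). Rfc1, the large subunit of the loader, had 8.54, 8.74, 8.69 and 8.64 FPKM in MI day 3 control and 6.66, 6.42, 6.87 and 6.79 in sham. It had 7.35, 6.22 and 6.66 FPKM in MI day 14 FGF17, 6.21, 6.48 and 6.27 in MI day 14 control and 8.77, 8.22, 7.47 and 8.53 in MI day 3 FGF17. Its day 3 libraries were above sham by a narrow margin and its day 14 libraries overlapped sham. The change of 0.35 ± 0.07 at day 3 (adjusted p = 0.000281) was lost with median-of-ratios scaling (0.06) and when mitochondrially encoded genes were dropped (0.17). The day 14 difference of -0.08 ± 0.07 (adjusted p = 0.418) became -0.33 and passed with median-of-ratios scaling (adjusted p = 0.00195).

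The small loader subunits Rfc2, Rfc3, Rfc4 and Rfc5 were higher than sham at day 3 by 1.01 (Rfc2) to 1.56 (Rfc5) log2. Rfc5 (chromosome 5, 117378103 to 117389047, minus strand) had 3.5, 2.67, 2.40 and 3.18 FPKM in MI day 3 control and 0.745, 0.676, 0.683 and 0.546 in sham. Rfc3 (chromosome 5, 151642756 to 151651242, minus strand) had 3.02, 3.05, 2.89 and 3.23 FPKM in MI day 3 control and 0.761, 0.806, 0.845 and 0.728 in sham. Rfc4 had 8.36, 6.28, 8.93 and 10.1 FPKM in MI day 3 control and 3.59, 3.80, 3.66 and 3.34 in sham. For each of these 3 the day 3 libraries were all above sham. At day 14 Rfc4 had 2.74, 4.08 and 3.68 FPKM with FGF17 and 4.33, 4.37 and 4.98 with the control vector. It had 7.71, 8.14, 8.15 and 7.56 FPKM in MI day 3 FGF17. The control libraries of Rfc4 at day 14 were above sham, with a difference of 0.30 ± 0.13 that did not pass (adjusted p = 0.0667). Rfc2 passed at day 14 with 0.42 ± 0.13, lost under median-of-ratios scaling (0.20). Rfc3 passed with 0.60 ± 0.09 (adjusted p = 5.00e-05), and Rfc5 with 0.36 ± 0.13 (adjusted p = 0.0273, lost without sham library 5 and without MI day 14 control library 1 or 2, at 0.31 to 0.33, and with median-of-ratios scaling, at 0.19, or when mitochondrially encoded genes were dropped, at 0.30).

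Of the polymerase and primase genes, Prim1, the catalytic subunit of primase, had the largest day 3 change and Pold1, the catalytic subunit of polymerase delta, the smallest. Prim1 (chromosome 10, 128015168 to 128030037, plus strand) had 3.77, 3.85, 4.02 and 4.05 FPKM in MI day 3 control and 0.720, 0.467, 0.749 and 1 in sham. It had 1.01, 0.606 and 0.732 FPKM in MI day 14 FGF17, 1.68, 1.42 and 0.658 in MI day 14 control and 3.57, 3.78, 3.84 and 4.05 in MI day 3 FGF17. The day 3 libraries lay between 3.57 and 4.05 FPKM, above all others, and both day 14 groups overlapped sham. Prim1 changed by 1.86 ± 0.17 log2 at day 3 and 0.47 ± 0.18 at day 14 (adjusted p = 4.63e-08 and 0.0389). The day 14 call was lost in 8 alternatives, with values of 0.29 to 0.48, among them the fits without MI day 14 control library 1 or 2 and without sham library 1, 2 or 4. Pold1 had 2.11, 1.74, 1.47 and 3.6 FPKM in MI day 3 control and 1.29, 0.837, 1.28 and 0.991 in sham. It had 1.39, 1.61 and 2.11 FPKM in MI day 14 FGF17, 1.18, 1.69 and 1.37 in MI day 14 control and 2.26, 1.81, 1.90 and 2.43 in MI day 3 FGF17. MI day 3 control library 4 was far above the other 3, and the day 3 libraries were above sham. The change was 0.72 ± 0.19 at day 3 (adjusted p = 0.00302) and 0.26 ± 0.20 at day 14 (adjusted p = 0.300). Pola1 and Pola2, of polymerase alpha, and Prim2 were higher by 0.98 (Pola2) to 1.65 (Prim2) at day 3 and by 0.43 (Pola1) to 0.65 (Prim2) at day 14. The day 14 call of Pola1 was lost without MI day 14 control library 1 or 2 and without sham library 5 (0.35 to 0.40), and with median-of-ratios scaling (0.26), which also ended that of Pola2 (0.37). Pole, the catalytic subunit of polymerase epsilon and below the filter, had 0.890, 0.907, 0.761 and 1.05 FPKM in MI day 3 control and 0.0555, 0.0625, 0.114 and 0.0787 in sham. It had 0.166, 0.126 and 0.181 FPKM in MI day 14 FGF17, 0.164, 0.176 and 0.0986 in MI day 14 control and 0.935, 0.666, 0.667 and 1.03 in MI day 3 FGF17, so the day 3 libraries of Pole were all above the rest.

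The 3 subunits of replication protein A, which coats single-stranded DNA in replication and in repair, had day 3 changes below those of all 6 helicase subunits. Rpa3 (chromosome 6, 8255936 to 8259173, minus strand) had 16.3, 16.6, 18.5 and 28.9 FPKM in MI day 3 control and 6.97, 7.96, 9.10 and 7.25 in sham. It had 9.16, 10.1 and 9.53 FPKM in MI day 14 FGF17, 14.8, 12.1 and 12.2 in MI day 14 control and 14.1, 14.1, 15.1 and 17 in MI day 3 FGF17. All MI libraries were above sham, and the 2 vectors did not overlap at day 14. Rpa1 had 11.8, 11.6, 11.5 and 16.6 FPKM in MI day 3 control and 6.99, 7.60, 9.55 and 5.37 in sham. It had 8.46, 5.88 and 6.87 FPKM in MI day 14 FGF17, 9.30, 10.2 and 8.48 in MI day 14 control and 8.13, 11.7, 12.1 and 13.0 in MI day 3 FGF17. MI day 3 FGF17 library 1 lay within the range of sham, and both day 14 groups overlapped it. Rpa2 had 6.72, 4.06, 6.09 and 7.17 FPKM in MI day 3 control and 3.31, 3.83, 3.53 and 4.2 in sham. It had 3.85, 4.84 and 4.67 FPKM in MI day 14 FGF17, 3.32, 3.74 and 3.82 in MI day 14 control and 6.44, 5.94, 6.33 and 6.17 in MI day 3 FGF17. MI day 3 control library 2 overlapped sham, and at day 14 the FGF17 libraries were all above the control libraries, the reverse of Rpa1 and Rpa3. Changes at day 3 were 1.27 ± 0.14 for Rpa3, 0.77 ± 0.17 for Rpa1 and 0.60 ± 0.13 for Rpa2. At day 14 Rpa3 passed (0.70 ± 0.16, adjusted p = 0.00139), while Rpa1 (0.34 ± 0.19, adjusted p = 0.139) and Rpa2 (-0.03 ± 0.14, adjusted p = 0.876) did not.

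Lig1 and Fen1 finish the lagging strand: the FEN1 nuclease trims the RNA-primed flap and DNA ligase 1 seals the nick. Lig1 (chromosome 7, 13277283 to 13311433, plus strand) had 5.97, 5.65, 4.36 and 8.67 FPKM in MI day 3 control and 0.683, 0.724, 0.885 and 0.648 in sham. It had 1.40, 1.14 and 1.29 FPKM in MI day 14 FGF17, 2.13, 1.98 and 1.29 in MI day 14 control and 6.71, 5.13, 5.36 and 5.64 in MI day 3 FGF17. All MI libraries of Lig1 were above sham, with changes of 0.88 ± 0.17 at day 14 and 2.40 ± 0.16 at day 3. Fen1 (chromosome 19, 10199132 to 10204169, minus strand) had 2.96, 7.75, 4.29 and 3.19 FPKM in MI day 3 control and 1.54, 2.83, 2.31 and 1.95 in sham. It had 1.41, 0.809 and 2.52 FPKM in MI day 14 FGF17, 2.84, 2.67 and 2.08 in MI day 14 control and 7.46, 7.54, 3.13 and 7.68 in MI day 3 FGF17. Fen1 was split within the day 3 groups, with 3 of 4 FGF17 libraries and 1 of 4 control libraries at 7.46 to 7.75 FPKM and the others at 2.96 to 4.29. Its day 3 change of 0.86 ± 0.31 (adjusted p = 0.0225) was lost without MI day 3 control library 2 (0.59), without sham library 1 (0.74), under median-of-ratios scaling (0.60) and when mitochondrially encoded genes were dropped (0.69). The day 14 difference was 0.21 ± 0.33 (adjusted p = 0.633). In GENCODE M21, 1909 exon bases of Fen1 are shared with the antisense gene Gm10143. Exon bases of 14 of the 44 genes are shared with a gene on the opposite strand, among them Mcm7, Rfc5 (499 bases, with Wsb2) and Chaf1a (4648 bases, with Ubxn6). The strandedness of the libraries is not given in the sources used here, so these levels are less certain, as are those of Pcna and Tyms, which have processed pseudogenes of their own name.

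Among the enzymes of nucleotide supply, Rrm2, the S phase subunit of ribonucleotide reductase, stood out. Rrm2 (chromosome 12, 24708241 to 24714146, plus strand) had 12.9, 13.2, 10.7 and 16.8 FPKM in MI day 3 control and 0.817, 0.761, 0.488 and 0.473 in sham. It had 1.49, 1.22 and 1.61 FPKM in MI day 14 FGF17, 3.32, 3.93 and 2.97 in MI day 14 control and 14.8, 11.9, 13.2 and 14.4 in MI day 3 FGF17. No 2 of the groups MI day 14 FGF17, MI day 14 control, MI day 3 and sham overlapped. The changes against sham were 1.79 ± 0.15 at day 14 and 3.61 ± 0.14 at day 3 (adjusted p = 8.09e-08 and 1.58e-12). Rrm1, the other subunit, exceeded Rrm2 1.60 ± 0.337 fold in MI day 14 FGF17 and 2.81 ± 0.868 fold in sham, and was below it in the other groups, at 0.821 ± 0.0750 of its level in MI day 14 control, 0.569 ± 0.0297 in MI day 3 FGF17 and 0.627 ± 0.0316 in MI day 3 control. Tyms, thymidylate synthase (chromosome 5, 30058202 to 30073617, minus strand), had 2.59, 3.39, 2.61 and 3.05 FPKM in MI day 3 control and 0.440, 0.337, 0.344 and 0.234 in sham, and changed by 0.90 ± 0.15 at day 14 and 2.02 ± 0.13 at day 3. Tk1, thymidine kinase 1, changed by 0.86 ± 0.19 and 2.44 ± 0.18. Dut, the dUTPase that keeps uracil out of DNA, had 12, 11.8, 11.5 and 19.7 FPKM in MI day 3 control and 5.12, 6.04, 7.80 and 6.92 in sham. It had 6.91, 7.42 and 9.82 FPKM in MI day 14 FGF17, 8.11, 7.66 and 6.51 in MI day 14 control and 14.5, 12, 12.9 and 13.0 in MI day 3 FGF17. The day 3 libraries of Dut were above sham and both day 14 groups overlapped it, with changes of 1.01 ± 0.16 at day 3 (adjusted p = 3.46e-05) and 0.20 ± 0.17 at day 14 (adjusted p = 0.366).

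The 3 regulators of S phase entry were higher than sham at both days. E2f1 (chromosome 2, 154559407 to 154569892, minus strand), the transcription factor of many replication genes, had 2.87, 3.15, 1.82 and 5.03 FPKM in MI day 3 control and 0.204, 0.0419, 0.300 and 0.159 in sham. It had 0.856, 0.919 and 1.01 FPKM in MI day 14 FGF17, 1.55, 1.66 and 1.22 in MI day 14 control and 2.69, 2.76, 2.98 and 3.07 in MI day 3 FGF17. Every MI library of E2f1 was above sham, and at day 14 the FGF17 libraries were all below the control ones. Its changes were 1.56 ± 0.20 at day 14 and 2.40 ± 0.19 at day 3 (adjusted p = 1.10e-05 and 8.63e-09). Ccne1 (chromosome 7, 38097984 to 38107534, minus strand), cyclin E1, which drives CDK2 at the start of S phase, had 1.86, 2.35, 1.99 and 2.73 FPKM in MI day 3 control and 0.130, 0.188, 0.135 and 0.0941 in sham. All day 3 control libraries were at or above 1.86 FPKM and all sham libraries at or below 0.188. Ccne1 changed by 0.72 ± 0.18 at day 14 and 2.09 ± 0.17 at day 3 (adjusted p = 0.00327 and 1.04e-08), and Ccne2, cyclin E2, by 0.79 ± 0.16 and 2.16 ± 0.15.

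Factors that copy chromatin held the largest change of the 44. Uhrf1 (chromosome 17, 56303321 to 56323486, plus strand), which brings DNMT1 to half-methylated DNA behind the fork, had 7.85, 7.44, 5.62 and 9.10 FPKM in MI day 3 control and 0.0650, 0.0753, 0.0799 and 0.126 in sham. It had 0.471, 0.497 and 0.523 FPKM in MI day 14 FGF17, 1.09, 0.929 and 0.663 in MI day 14 control and 7.78, 5.63, 7.57 and 7.30 in MI day 3 FGF17. All MI libraries of Uhrf1 were above sham, and the vectors were apart at day 14. Its changes against sham were 1.24 ± 0.15 at day 14 and 3.75 ± 0.13 at day 3 (adjusted p = 3.30e-06 and 1.05e-12). Chaf1b, of the histone chaperone CAF-1, had 1.36, 1.67, 1.23 and 2.17 FPKM in MI day 3 control and was listed at 0.0263, 0.173, 0.0226 and 0 in sham. It had 0.155, 0.0508 and 0.283 FPKM in MI day 14 FGF17, 0.395, 0.418 and 0.108 in MI day 14 control and 1.61, 1.87, 1.61 and 1.76 in MI day 3 FGF17. Both day 14 groups of Chaf1b overlapped sham library 2. Chaf1b changed by 1.91 ± 0.17 at day 3 and 0.52 ± 0.18 at day 14 (adjusted p = 3.06e-08 and 0.0224). The day 14 call was lost without MI day 14 control library 1 or 2 and without sham library 5 (0.42 to 0.48). Chaf1a, its partner, changed by 2.20 ± 0.19 and 0.60 ± 0.21, and the day 14 call was lost without MI day 14 control library 1 or 2 (0.54 and 0.42) and under median-of-ratios scaling (0.43).

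Promoter sequences were read for what these genes share beside their role. RefSeq promoters (GRCm38.p6, 250 bases before to 50 after the start) were at hand for 36 of the 44 genes, and were searched on both strands for the E2F-type letters TTTCCCGC, TTTGGCGC, TTTCGCGC and TTTGCCGC. A match was present in 12 of the 36 genes, 33.3%, and in 704 of 27025 genes of the promoter table, 2.6%. The 12 were Mcm3, Mcm5, Mcm6, Mcm7, Orc1, Cdc6, Cdt1, Rfc3, Pola1, Pold1, Lig1 and Uhrf1. The CCAAT box (letters CCAAT) was in 21 of 36 (58.3%) and in 41.1% of all genes, and the CHR element of mitotic genes (letters TTTGAA) in 4 of 36 (11.1%) and in 20.2% of all. Genes of similar roles outside the 44 held E2F-type matches as often. They were present in 12 of 35 other replication genes (34.3%) and 7 of 18 S phase control genes (38.9%). Of 25 mitosis genes with an entry, 3 (12%) had an E2F-type match, 21 (84%) a CCAAT box and 19 (76%) a CHR match. Mcm4, Gmnn, Gins1, Gins2, Rfc2, Prim2, Pole and Ccne2 are named only. A match is a string of letters and not a measured site.

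The 200 bases before the start are shown for 2 helicase subunits and Cdc6, for Rfc3 and the second promoter of Uhrf1 as further members with a match, and for Rrm2, which had none of the 4 strings. They are given 5′ to 3′ on the strand of the gene, with E2F-type matches in capitals. Mcm5 is at chr8:75109309-75109508 (plus strand), Mcm6 at chr1:128359706-128359905 (minus), Cdc6 at chr11:98907951-98908150 (plus), Rfc3 at chr5:151651209-151651408 (minus), Uhrf1 at chr17:56304113-56304312 (plus) and Rrm2 at chr12:24708054-24708253 (plus), all in GRCm38 and counted from the RefSeq start, which can differ from the gene start in the deposited table. In Mcm5, and at the first match of Mcm6, the 12 capitals hold 2 strings on opposite strands that overlap by 4 bases.
Mcm5: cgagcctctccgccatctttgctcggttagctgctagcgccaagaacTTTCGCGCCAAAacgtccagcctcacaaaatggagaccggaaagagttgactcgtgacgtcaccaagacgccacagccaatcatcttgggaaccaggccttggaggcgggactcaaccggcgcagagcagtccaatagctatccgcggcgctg
Mcm6: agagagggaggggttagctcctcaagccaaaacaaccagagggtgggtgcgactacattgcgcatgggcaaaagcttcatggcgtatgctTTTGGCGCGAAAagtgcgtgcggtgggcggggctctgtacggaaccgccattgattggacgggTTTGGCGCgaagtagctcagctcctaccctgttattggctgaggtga
Cdc6: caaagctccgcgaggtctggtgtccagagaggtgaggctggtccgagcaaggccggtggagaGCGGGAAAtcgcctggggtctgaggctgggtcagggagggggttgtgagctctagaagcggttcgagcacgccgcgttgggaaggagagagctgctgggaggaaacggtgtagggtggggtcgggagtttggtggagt
Rfc3: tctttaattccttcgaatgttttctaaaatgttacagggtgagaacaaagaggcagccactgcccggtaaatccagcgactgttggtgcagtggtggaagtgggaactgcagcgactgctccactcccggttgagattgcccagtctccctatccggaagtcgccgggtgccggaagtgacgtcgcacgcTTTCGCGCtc
Uhrf1: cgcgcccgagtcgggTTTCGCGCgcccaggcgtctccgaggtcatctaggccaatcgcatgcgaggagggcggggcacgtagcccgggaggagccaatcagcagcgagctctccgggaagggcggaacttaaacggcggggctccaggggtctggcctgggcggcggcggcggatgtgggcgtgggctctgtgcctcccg
Rrm2: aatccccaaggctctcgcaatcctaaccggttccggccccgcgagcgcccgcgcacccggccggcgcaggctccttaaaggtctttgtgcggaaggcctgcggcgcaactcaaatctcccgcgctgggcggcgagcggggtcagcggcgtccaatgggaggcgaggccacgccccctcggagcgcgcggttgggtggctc

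Genes with and without a match stood side by side among the largest changes. Uhrf1 and Mcm5, with matches, and Rrm2, without, had the 3 largest log2 changes at day 3 (3.75, 3.22 and 3.61), while Pold1, with a match, had 0.72. Of the 6 genes lower with FGF17 at day 14, described next, Mcm5 and Rfc3 had a match, and Rrm2, Tyms, Ccne1 and Rfc5 had none in this window.

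**Figure D4:**
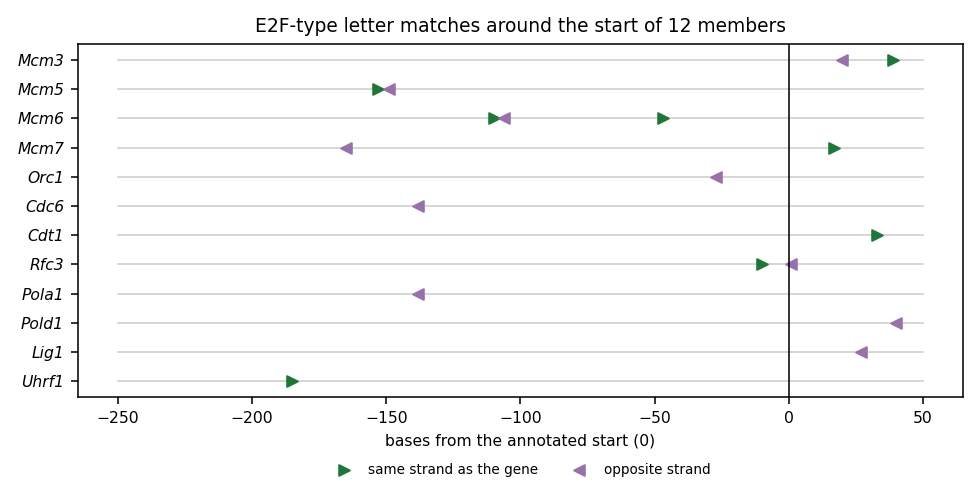
Position of the first base of each E2F-type letter match in the 12 members that hold one, in bases from the annotated start (0), over the searched window of 250 bases before to 50 after it. Right-pointing marks are on the strand of the gene and left-pointing marks on the opposite strand, and matches lie on both sides of the start.

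FGF17 was set against the control vector after MI to ask whether the vector altered these transcripts. At day 3 none of the 42 genes passed, and over all genes tested 0.0581% were higher and 0.174% lower with FGF17. Unadjusted, limma gave p under 0.05 for 2 of the 42 genes, 4.76%, below the 8.54% of all genes tested. The 2 were Cdt1 (0.37 ± 0.16, adjusted p = 0.491) and Rpa3 (-0.36 ± 0.14, adjusted p = 0.458). The log2 differences ran from -0.36 (Rpa3) to 0.48 (Fen1), with a median of -0.06, and a median of -0.03 over all genes tested. For none of the 44 genes were the 4 libraries of 1 vector all above or below the 4 of the other, against 1.65% all above and 3.84% all below with FGF17 over all genes tested. These misses do not show that the vectors acted alike: the SE of these differences was 0.07 to 0.31 log2. Erythroid markers, of red blood cell precursors, differed between these groups, with sums of 4886 to 7941 FPKM in MI day 3 FGF17 and 15135 to 25733 in MI day 3 control, and 2 of 7 passed. Their part in the result was not tested.

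At day 14, 6 of the 42 genes were lower with FGF17 than with the control vector and none was higher. They were the nucleotide enzymes Rrm2 and Tyms, the clamp loader subunits Rfc3 and Rfc5, the helicase subunit Mcm5 and cyclin E1 (Ccne1). Over all genes tested, 5.98% were lower and 3.63% higher. The log2 differences of 37 of the 42 genes were below 0, with a median of -0.37, against -0.04 over all genes tested, and Gmnn, Rfc1, Pold1, Rpa2 and Dut were above 0 without passing. Unadjusted, limma gave p under 0.05 for 18 of the 42, 42.9%, and for 26.7% of all genes tested.

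Rrm2 had 1.49, 1.22 and 1.61 FPKM in MI day 14 FGF17 and 3.32, 3.93 and 2.97 in MI day 14 control, a log2 change of -1.01 ± 0.16 (adjusted p = 0.00227). Tyms had 0.559, 0.352 and 0.414 FPKM in MI day 14 FGF17 and 1.44, 0.841 and 0.970 in MI day 14 control, a change of -0.74 ± 0.16 (adjusted p = 0.00926). In both genes the 3 FGF17 libraries were all below the 3 control libraries. Rrm2 stayed above sham (1.44 ± 0.203 FPKM in MI day 14 FGF17 and 0.635 ± 0.179 in sham, mean ± SD), and Tyms overlapped it. Rfc3 had 0.952, 0.995 and 0.798 FPKM in MI day 14 FGF17 and 1.63, 1.35 and 1.36 in MI day 14 control, a change of -0.46 ± 0.10 (adjusted p = 0.00983). Rfc5 had 0.747, 0.454 and 0.519 FPKM in MI day 14 FGF17 and 1.06, 1.06 and 0.860 in MI day 14 control, a change of -0.48 ± 0.14 (adjusted p = 0.0356). Both loader subunits were lower in all 3 FGF17 libraries and overlapped sham there. Mcm5, with values given above, changed by -0.72 ± 0.16 (adjusted p = 0.0139). Ccne1 had 0.0483, 0.0474 and 0.297 FPKM in MI day 14 FGF17 and 0.652, 0.353 and 0.674 in MI day 14 control, a change of -0.76 ± 0.19 (adjusted p = 0.0219). FGF17 libraries 1 and 3 of Ccne1 were at 0.0483 and 0.0474 FPKM, below every sham library, and library 4 was above them all. With FGF17 at day 3, Tyms had 3.13, 3.72, 2.64 and 2.95 FPKM and Rfc3 had 3.25, 2.80, 3.19 and 2.90. Rfc5 had 3.03, 2.73, 2.50 and 2.44 FPKM and Ccne1 had 2.25, 2.02, 1.22 and 1.78 in the same group. These day 3 FGF17 libraries overlapped the day 3 control libraries in all 4 genes.

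**Figure D5:**
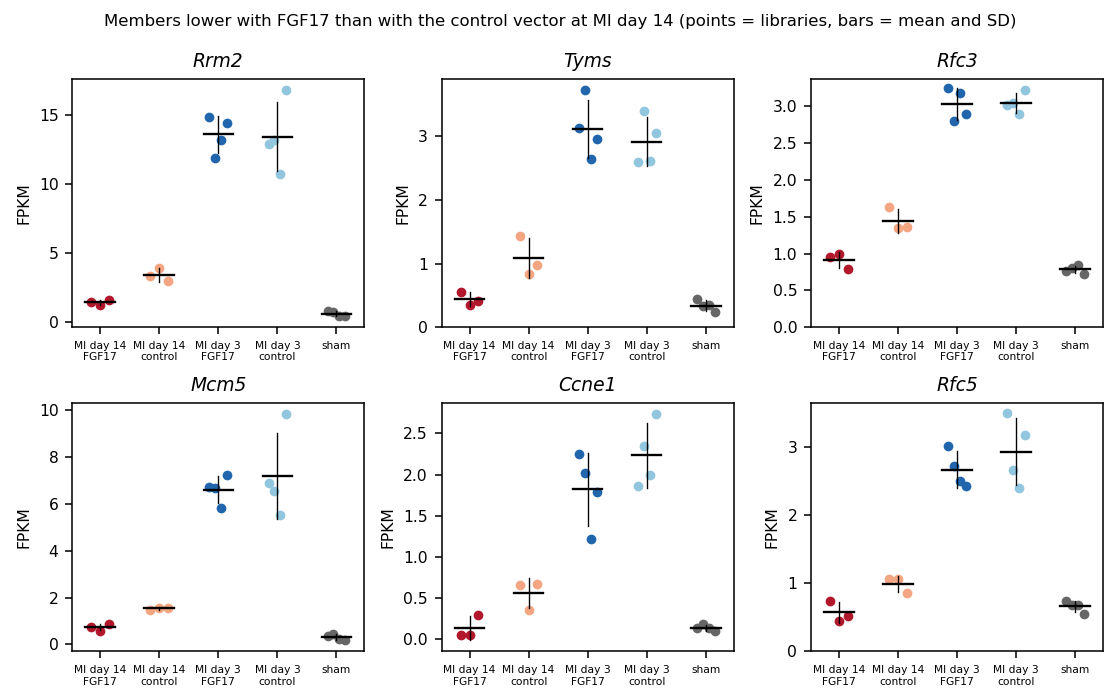
FPKM of the 6 genes that were lower with FGF17 at MI day 14, in the 5 groups. Points are libraries, and bars are the mean and SD. In each panel the 3 MI day 14 FGF17 libraries lie below the 3 MI day 14 control libraries, and the day 3 groups overlap.

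The 3 FGF17 libraries were all below the 3 control libraries at day 14 for 19 of the 44 genes and all above for 1, Rpa2, against 14.8% below and 11.4% above over all genes tested. Beside the 6 genes past the threshold, the 19 held Mcm2, Mcm4, Mcm6, Orc6, Cdt1, Cdc45, Cdc7, Rfc4, Rpa1, Rpa3, Tk1, E2f1 and Uhrf1, with log2 differences of -0.23 (Cdc7) to -0.62 (Tk1). By role, 4 of 6 helicase genes, 3 of 6 clamp and loader genes, 3 of 5 nucleotide genes and none of the polymerase and primase genes were among them. Against sham, the 3 MI day 14 FGF17 libraries were all above for 19 of the 44 genes, with 32.6% over all genes tested. The 3 MI day 14 control libraries were all above the same sham libraries for 30, with 43.3% over all.

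The count of 6 rested on few libraries. It was 1 without MI day 14 control library 1, 3 without MI day 14 FGF17 library 3, 13 without MI day 14 control library 4 and 10 without MI day 3 control library 4, and 1 of 29 tested when only the 2 groups entered the fit. Rrm2 kept its call in all 30 alternatives (adjusted p 0.00167 to 0.0354). Tyms lost it without MI day 14 control library 1 (-0.58, adjusted p = 0.0676). Rfc3 lost it without that library too (-0.39, adjusted p = 0.0687) and with only the 2 groups in the fit (-0.46, adjusted p = 0.147). Mcm5 lost it in 4 alternatives, Ccne1 in 4 and Rfc5 in 8, with adjusted p of at most 0.0677, 0.115 and 0.148, among them leaving out MI day 14 control library 1 and MI day 14 FGF17 library 3 for each. Tyms, Rfc5 and Ccne1 passed the filter on low values only through day 3 libraries. These 3 genes were tested in 28 of the 30 alternatives, and Rfc3 in 29. Over all genes, 438 were higher and 721 lower; under median-of-ratios scaling 610 were higher and 665 lower, and with equal summed FPKM 422 were higher and 385 lower.

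The difference between the FGF17 effects, day 14 minus day 3, passed for Rrm2 among the 42 genes, with 0.257% lower and 0.108% higher over all genes tested. In limma, unadjusted p was under 0.05 for 6 of the 42 genes (14.3%), near the 14% of all genes tested. For Rrm2 the FGF17 effect was -1.01 ± 0.16 at day 14 and 0.03 ± 0.14 at day 3, a difference of -1.04 ± 0.21 (adjusted p = 0.0466). That call was lost in 17 of 30 alternatives, and adjusted p ranged from 0.0239 to 0.140 over all 30. Tyms had a difference of -0.82 ± 0.21 that did not pass (adjusted p = 0.0835). For the other 4 genes lower at day 14 the differences were -0.45 ± 0.13 (Rfc3), -0.63 ± 0.22 (Mcm5), -0.51 ± 0.26 (Ccne1) and -0.37 ± 0.18 (Rfc5), with adjusted p of 0.124 to 0.388, so an effect particular to day 14 is not shown for them.

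Other genes of replication and the cell cycle, from lists kept apart from the 44, were read in the same fits. In MI day 3 control against sham, 45.9% of all genes tested were higher and 15.0% lower. How many genes of these lists passed the filter only through day 3 libraries was not counted. Of 39 other replication genes tested, 32 were higher and 1 lower in MI day 3 control than in sham. The 3 largest changes were 2.65 ± 0.16 for the histone chaperone Asf1b, 2.59 ± 0.14 for the chromatin remodeller Hells and 2.40 ± 0.17 for deoxycytidine kinase (Dck). The smallest were -0.39 ± 0.11 for Rrm2b, the p53-induced subunit of ribonucleotide reductase, which was the 1 lower gene, 0.22 ± 0.08 for Orc4 and 0.23 ± 0.10 for Orc5. Of 24 S phase control genes tested, 19 were higher and 3 lower. Ccna2 (cyclin A2), Rbl1 (the pocket protein p107) and E2f8 (a repressor E2F) had the largest changes, 4.72 ± 0.14, 1.89 ± 0.13 and 1.89 ± 0.13. The 3 lower were Cdkn1c, which encodes the CDK inhibitor p57 (-1.04 ± 0.18), the repressor E2f6 (-0.85 ± 0.08) and Rbl2, the pocket protein p130 of resting cells (-0.23 ± 0.08).

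All 29 mitosis genes were higher at day 3, beside 45.9% of all genes tested. Their median was 3.31, against 1.78 over the 42 replication genes and 0.25 over all genes tested. The largest changes were 4.56 ± 0.16 for Top2a (topoisomerase II alpha), 4.36 ± 0.18 for Ccnb2 (cyclin B2) and 4.26 ± 0.14 for the cycling marker Mki67, and the smallest 1.65 ± 0.18 for the kinetochore protein Cenpf, 1.73 ± 0.15 for the condensin subunit Ncapd2 and 1.84 ± 0.13 for Smc4 of the same complex. At day 14 with FGF17 against the control vector, 22 of the 29 were lower and none higher (median -0.70), among them Top2a (-1.14 ± 0.18) and Mki67 (-1.07 ± 0.17). Of all genes tested there, 5.98% were lower and 3.63% higher. In that comparison 5 of 39 other replication genes were lower and 1, Rnaseh2c (0.74 ± 0.20), higher, and of 24 S phase control genes 4 were lower, among them Ccna2 (-1.17 ± 0.16) and E2f2 (-0.62 ± 0.15), and 1, E2f6 (0.44 ± 0.10), was higher. At day 3 none of these 3 lists had a gene past the threshold with FGF17. Unadjusted p was under 0.05 in limma for 2 of 39, 2 of 24 and 0 of 29, beside 8.54% of all genes tested.

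Markers of cell types were read in the same fits, where 45.9% of all genes tested were higher and 15.0% lower in MI day 3 control than in sham. In MI day 3 control against sham, 10 of 10 macrophage markers were higher (summed FPKM of 1493 to 1764 in MI day 3 control and 279 to 305 in sham). Of 10 fibroblast markers, 8 were higher and 1 lower (sums of 1080 to 1328 in MI day 3 control and 622 to 688 in sham). Of 10 cardiomyocyte markers, 7 were lower (sums of 6710 to 8209 in MI day 3 control and 9894 to 11404 in sham). All 7 erythroid markers tested were higher (sums of 15135 to 25733 in MI day 3 control and 1765 to 4010 in sham). In MI day 14 FGF17 against MI day 14 control, 3.63% of all genes tested were higher and 5.98% lower. There 3 of 10 cardiomyocyte markers were higher (sums of 9531 to 11345 FPKM with FGF17 and 7789 to 9266 with the control vector). Of 10 fibroblast markers, 4 were lower, among them Postn (-1.36 ± 0.28), with sums of 1170 to 1420 FPKM with FGF17 and 1435 to 1715 with the control vector. Of 10 macrophage markers, 2 were lower (sums of 715 to 762 FPKM with FGF17 and 865 to 1323 with the control vector). For none of these 3 lists did the sums of the vectors overlap at day 14. Among other lists, day 3 was higher than sham for 6 of 8 neutrophil, 4 of 4 T and NK cell, 2 of 2 B cell, 2 of 10 endothelial and 2 of 8 mural markers tested, and lower for 2 endothelial and 4 mural markers. The endothelial and mural shares higher were below the 45.9% of all genes tested. The T and NK cell list held 10 markers and the B cell list 6, and the rest were not tested. Their sums in sham were 1.54 to 2.26 and 0.642 to 1.91 FPKM. At such levels the filter itself favours markers that were higher after MI. With FGF17 at day 14, 1 of 10 endothelial markers was lower and no marker of the other 5 lists passed. No marker was at 0 in every library of a group. Their part in the changes of the replication genes was not tested.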

How the data were processed

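Whole-heart RNA was extracted with Trizol and made into libraries by Illumina protocols, per the labels' protocols. The submitters' processing notes name FastQC 0.11.7, cutadapt 1.17, HISAT2 2.1.0, StringTie 1.3.3 and the mouse build GRCm38. The authors deposited 1 table of FPKM per gene and library, used here as deposited. Read counts are not known, so depth sets no interval here, and FPKM depends on what else each library holds, so other scalings were run. Table columns name their group, and outside the replicate block a column's number was used only as a name. The members and lists were chosen with earlier results of these data known.

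From the FPKM, log2(FPKM + 0.5) was fitted with limma 3.58.1 in R 4.3.3 on 5 group means over 18 libraries and 12052 genes (at least 1 FPKM in at least 3 libraries), with a trended prior variance. The 7 contrasts were tested two-sided with Benjamini-Hochberg adjustment over all genes within each contrast, at a threshold of 0.05. The fit was tested on simulated data. Genes described library by library are, in each role, those tested with the largest and smallest day 3 change on this log2 scale, those past the threshold for FGF17 and those not past it at both days. Promoter letters come from RefSeq (GRCm38.p6), and exon overlaps from GENCODE M21. Alternatives were other pseudocounts (0.1 and 1), filters (none and 5 FPKM), scalings, variance priors, sample sets, a replicate block and each library left out.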

Additional observations from a re-analysis of the deposited data

Results flagged for a closer look

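A library that stood apart within its group of 4 was marked where its gap to the nearest other library, as a share of the group's range, was above Dixon's critical value at 95%. Of 132 groups of 4 so examined, 10 were marked, and chance marks about 1 in 20. MI day 3 control library 4 was the high one for Gins1 (gap 0.985 of the range), Dut (0.938), Rpa1 (0.936), Cdc45 (0.902) and Pola2 (0.889). For Cdc45 that library had 7.41 FPKM, against 4.47 to 4.76 in the other 3. The same library had the lowest share of mitochondrially encoded genes of its group, 18.8%, and the part of that share was not tested.

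In MI day 3 FGF17, library 3 was the low one for Fen1 (0.952), at 3.13 FPKM against 7.46 to 7.68 in the others. In sham, library 1 was the low one for Pcna (0.974), library 5 the high one for Cdc6 (0.866) and Mcm7 (0.840), and library 2 the high one for Chaf1b (0.848).

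The FGF17 effect on Rrm2 differed between the days by -1.04 log2 in the test of the difference itself. That call was lost in 17 of 30 alternatives. The FGF17 effect was a fall at day 14 and 0.03 at day 3, and the 3 FGF17 libraries were lower than the 3 control libraries at day 14.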

How the results depend on the processing

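No replication gene changed direction while past the threshold under any alternative run. Over all genes, more were lower than higher with FGF17 at day 14 in the fit reported, and more were higher than lower with equal summed FPKM. Counts below are of the 42 replication genes, or of all genes where said. With a filter of 5 FPKM, 22 replication genes and 4645 genes passed at MI day 3 against sham, 14 and 3715 at MI day 14 against sham, 22 in MI day 14 FGF17 against MI day 3 FGF17, 20 in MI day 14 control against MI day 3 control, and 2 for FGF17 at day 14, with 18 genes for FGF17 at day 3. Fewer genes were tested there. With only the groups compared in the fit, 17 passed at MI day 14 against sham, and for FGF17 at day 14 1 and 104 genes; the difference of FGF17 effects gave 0 and 10 genes. That difference, 1 gene and 44 genes in the fit reported, gave 0 and 16 genes with a pseudocount of 0.1, 0 and 17 with equal summed FPKM, 76 genes with median-of-ratios scaling, and 2 and 104 genes with mitochondrially encoded genes left out. Without MI day 3 control library 4 and MI day 14 FGF17 library 4 together, chosen after seeing the data, 15 genes passed for FGF17 at day 3. The cause of these shifts was not tested.

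Leaving out each library in turn gave 40 to 41 replication genes and 6900 to 7486 genes at MI day 3 against sham, 23 to 33 and 4747 to 6217 at MI day 14 against sham, 37 to 40 and 3802 to 4868 for MI day 14 FGF17 against MI day 3 FGF17, and 37 to 39 and 2604 to 3744 for MI day 14 control against MI day 3 control. For FGF17 it gave 0 and 10 to 41 genes at day 3, 1 to 13 and 229 to 1679 at day 14, and 0 to 1 and 0 to 193 for the difference.

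Column numbers recur across groups. Deviations of same-numbered libraries correlated at -0.155 to 0.366, over 0.1 in 6 of 29 pairs. Those of libraries with different numbers correlated at -0.318 to 0.226, over 0.1 in 9 of 100 pairs. The labels do not say what the numbers stand for, and whether same-numbered libraries belong together was not tested. With a replicate block the replication genes that passed numbered 41 at MI day 3 and 26 at MI day 14 against sham, 40 and 39 between the days with FGF17 and with the control vector, 0 and 4 for FGF17 at days 3 and 14 (700 genes at day 14), and 0 for the difference (0 genes). Under the block the calls of Gmnn (-0.47, adjusted p = 0.0505), Pola1 (0.36, adjusted p = 0.0756) and Chaf1a (0.60, adjusted p = 0.0561) at MI day 14 against sham, and of Rfc5, Ccne1 and the difference for Rrm2 with FGF17, did not pass, while Pold1 and Fen1 passed in MI day 14 control against MI day 3 control.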
